A study of Rattus norvegicus with 23 samples.

Results

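The microRNA miR-338 was followed in small RNA from rat PC12 cells, a pheochromocytoma line of sympathoadrenal origin that is used as a model of neuron-like and neuroendocrine cells. Its entries were chosen by name, as every sRNAbench entry called rno-miR-338 on either arm, which gave 2 of the 413 entries of the table: rno-miR-338-3p and rno-miR-338-5p. Both were among the 269 entries that passed the low-count filter. The miRNA was put forward with its difference between the lines in these same libraries known, so that difference is given below as a description and without a test. All cells were male PC12 cells grown in serum and selected with G418 after transfection. One line carried the empty pcDNA3 vector. The other carried pcDNA3 with α1ACT, a transcription factor encoded by the calcium channel gene CACNA1A, with a C-terminal Flag tag and 11 glutamine repeats. Libraries came from 6 h, 24 h, 3 d and 10 d after splitting the cells. There were 23, with 3 per group except for the 2 vector libraries of 6 h. How many stable clones a line holds is not in the labels, nor whether replicates were grown as separate cultures. A difference between the lines therefore includes any difference between clones, and p-values measure the spread between these libraries, which may be technical.

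A miRNA hairpin is cut into a 5p and a 3p arm, of which 1 usually accumulates, and the bases 2 to 8 of the arm, the seed, pair with target mRNAs. In the brain miR-338 is known, together with miR-219, for driving oligodendrocyte precursors to differentiate. In sympathetic neurons miR-338-3p is known from axons, where it limits the local translation of a nuclear-encoded subunit of cytochrome c oxidase. Its hairpin lies within Aatk, the gene of apoptosis-associated tyrosine kinase, a kinase of nervous tissue.

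The sequences below show the 2 arms that were counted and the hairpin from which both are cut. They are RefSeq's for GRCr8, and the counts come from a build not given in the sources used here. The hairpin spans chr10:105796342-105796407 on the minus strand, the strand of Aatk, whose bounds contain it. Whether it lies in an intron was not examined. Capitals mark the seed in the mature arms and both mature arms in the hairpin.
miR-338-3p: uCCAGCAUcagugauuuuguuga
miR-338-5p: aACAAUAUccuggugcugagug
mir-338 hairpin: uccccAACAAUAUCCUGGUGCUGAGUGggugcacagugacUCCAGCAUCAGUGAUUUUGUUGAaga

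None of the other miRNAs among 693 mature rat names in the RefSeq table had the seed of either arm, and 0 shared even bases 2 to 7. In the counts miR-338 is therefore a family of its own.

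A second hairpin, mir-3065, is annotated on the opposite strand at the same place and contains the bounds of mir-338. Its arms are shown because they are the complement of those of miR-338, with the seed in capitals.
miR-3065-5p: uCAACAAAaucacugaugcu
miR-3065-3p: uCAGCACCaggauauuguugggga
All 20 bases of miR-3065-5p pair with positions 4 to 23 of miR-338-3p, counted from its 5′ end, and 19 bases of miR-3065-3p pair with positions 1 to 19 of miR-338-5p.

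The libraries held between 448557 counts (vector, 3 d, replicate 1) and 5070120 counts (α1ACT, 10 d, replicate 1). Endocrine miR-375-3p stood at 112245 to 190553 CPM (a library's count scaled to a common total by edgeR, with trimmed-mean-of-M-values factors, TMM). Of the other neuroendocrine markers, miR-182 stood at 26800 to 39057 CPM and miR-183-5p at 2965 to 5616 CPM. The list was not uniform, as miR-96-5p stood at 53.4 to 318 CPM and miR-7a-5p at 0 to 12.9 CPM, and miR-7a-2-3p had 0 counts. Of the glia and neuron markers, miR-219a-5p of oligodendrocytes stood at 4.48 to 12.1 CPM and neuronal miR-124-3p reached at most 2 counts in a library, while neuronal miR-128-3p stood at 1202 to 1617 CPM. The summed neuron markers spanned 1403 to 1822 CPM in the vector line and 1407 to 1829 CPM in the α1ACT line. Most of that sum was miR-128-3p (mean 1419 CPM), so it says little of the others, such as miR-9a-5p at 14.2 to 50.6 CPM. The 2 deposited count tables disagreed on the names of 2 libraries, and this touches the vector values below. The column named vector 6 h replicate 2 in one table matched the column named vector 10 d replicate 2 in the other, and the reverse, while 21 of 23 libraries matched their own name. The sRNAbench names are used below, and which naming is right was not tested.

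For miR-338-3p this disagreement is plain in the counts. The sRNAbench table lists 696 counts for vector 6 h replicate 2 and 1674 for vector 10 d replicate 2, and the Chimira table lists 1710 and 725. In the other 21 libraries the sRNAbench count was 0.910 to 0.981 times the Chimira count, and with the 2 names exchanged the pair would stand at 0.960 and 0.979. The tables therefore counted nearly the same reads for this miRNA in every library and differ in which of these libraries they call 6 h and which 10 d. The SD of its level in the vector groups was 42.4 CPM at 6 h and 32.5 CPM at 10 d in the sRNAbench table. In the Chimira table it was 156 and 130 CPM.

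**Figure D1:**
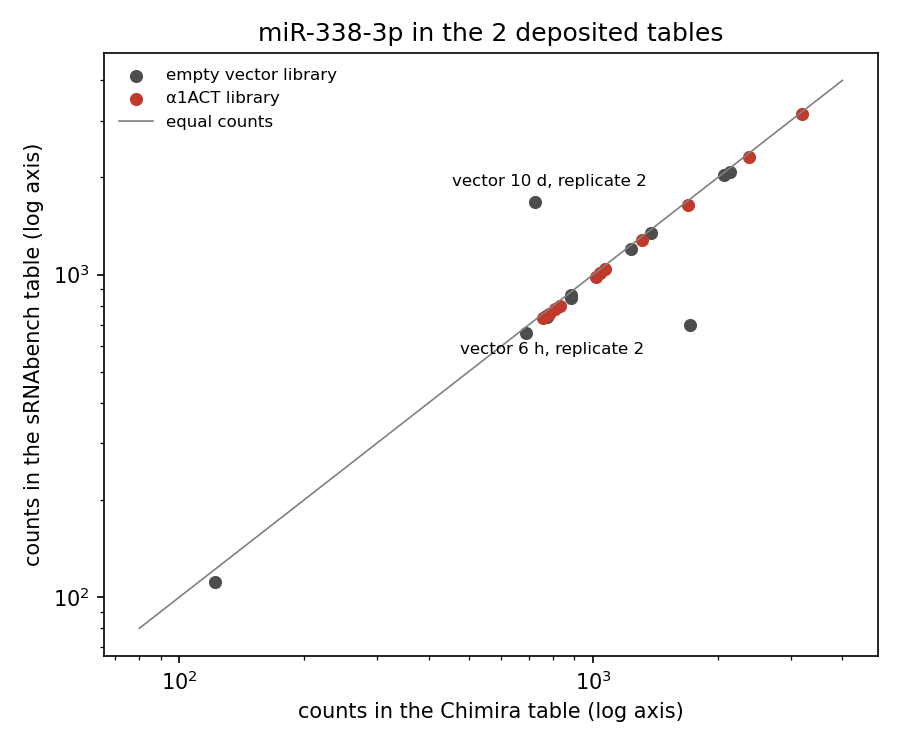
Counts of miR-338-3p in each library in the sRNAbench table (vertical, log axis) against the Chimira table (horizontal, log axis), with a line of equal counts. The 2 named vector libraries lie off the line, at 696 against 1710 and at 1674 against 725, and the other 21 lie just below it.

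The miRNA was of middling abundance. With a mean of 436 CPM miR-338-3p ranked 85 of 413 entries and took 0.0456% of all counts, next to miR-23a-3p (463 CPM), miR-15b-5p (448 CPM), miR-30c-2-3p (410 CPM) and miR-203a-3p (399 CPM). The 5p arm ranked 150, at a mean of 47.0 CPM, between miR-212-3p (50.8 CPM) and miR-20a-5p (49.6 CPM) above and miR-615 (43.6 CPM) and miR-6329 (43.5 CPM) below. Counts per library ran from 111 to 3140 for the 3p arm and from 15 to 278 for the 5p arm, with the lowest of both in the shallow vector library of 3 d. The biological coefficient of variation was 11.98% for the 3p arm and 14.7% for the 5p arm, against a median of 16.6% over the tested entries.

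Under the sRNAbench names the level of miR-338-3p changed with the time after splitting in both lines. In the α1ACT line the level was 439, 370 and 406 CPM at 6 h and 506, 418 and 451 CPM at 24 h (replicates 1 to 3). It was 355, 326 and 370 CPM at 3 d and reached 601, 751 and 616 CPM at 10 d. The vector line had 374 and 314 CPM at 6 h, then 412, 306 and 435 CPM at 24 h, with 249, 286 and 360 CPM at 3 d and finally 521, 576 and 578 CPM at 10 d. In each line every library of 10 d lay above every library of the earlier times, and the lowest mean was that of 3 d. With the 2 disputed names exchanged, this would not hold in the vector line, where a library of 314 CPM would be of 10 d and 1 of 576 CPM of 6 h. In the order of the 8 group means, α1ACT 10 d (656 ± 82.6 CPM; SD, n = 3) came first and vector 10 d (558 ± 32.5, n = 3) second. Then came α1ACT 24 h (458 ± 44.4, n = 3), α1ACT 6 h (405 ± 34.7, n = 3), vector 24 h (384 ± 69.0, n = 3) and α1ACT 3 d (351 ± 22.3, n = 3). Vector 6 h (344 ± 42.4, n = 2) and vector 3 d (298 ± 56.6, n = 3) came last. Under these names the ranges of α1ACT 10 d, vector 10 d and α1ACT 24 h did not overlap each other. From α1ACT 24 h downward each group overlapped the next. In the Chimira table vector 10 d spanned 319 to 565 CPM and overlapped α1ACT 24 h (405 to 525 CPM). The share of all entries that separate groups or times in this way was not counted, so nothing is read from it.

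**Figure D2:**
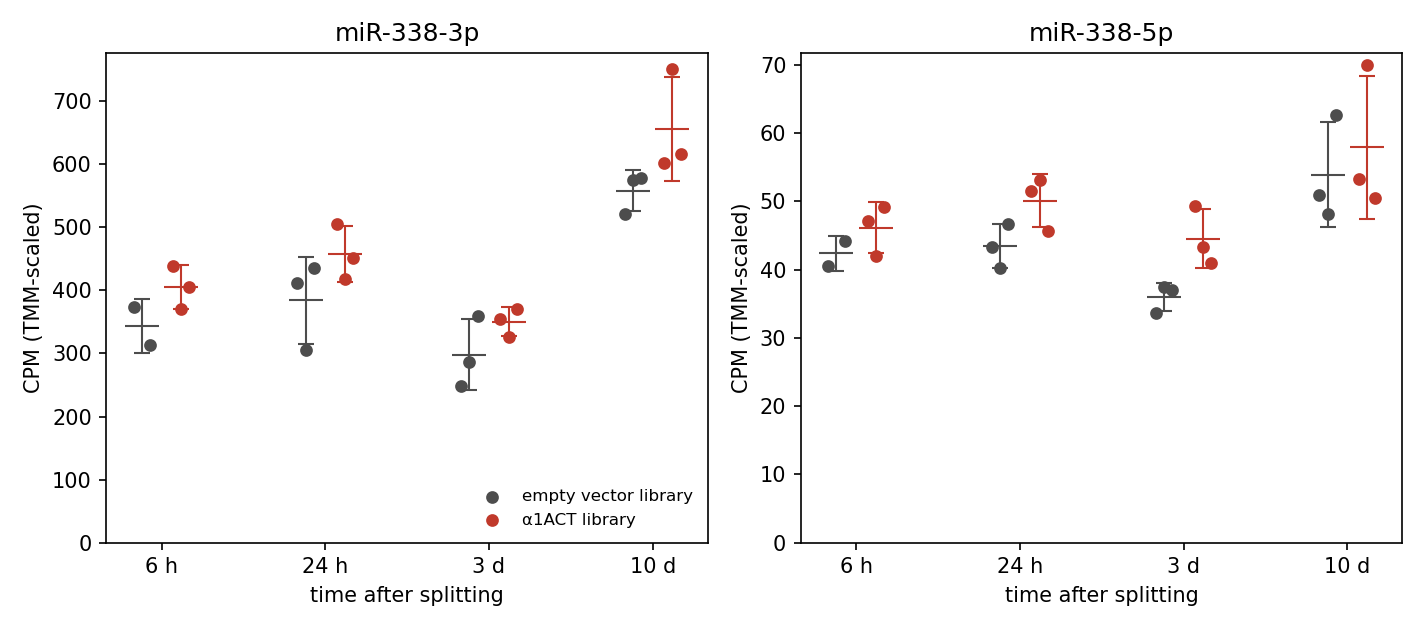
Level of miR-338-3p (left) and miR-338-5p (right) in CPM with TMM scaling, by time after splitting, with 1 point per library, the group mean as a horizontal mark and the SD as bars. For the 3p arm the libraries of 10 d lie highest in each line, at 521 to 578 CPM in the vector line and 601 to 751 CPM in the α1ACT line. The vertical scales of the panels differ.

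The F test of the 4 times found a change of miR-338-3p in each line (edgeR quasi-likelihood F test, adjusted p by Benjamini-Hochberg = 1.88e-05 in the α1ACT line and 7.06e-05 in the vector line). Time effects were common, with 42.0% of the tested entries called in the α1ACT line and 36.8% in the vector line. The call in the α1ACT line held in all 36 alternative settings. That in the vector line was lost with the names of the Chimira table (adjusted p = 0.0549) and with the pair exchanged in the sRNAbench table (0.0593).

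From 3 d to 10 d miR-338-3p rose 1.87-fold in the α1ACT line (log2 fold change 0.90, SE 0.135, edgeR quasi-likelihood adjusted p = 1.08e-05) and 1.84-fold in the vector line (0.88, SE 0.137, adjusted p = 2.78e-05). The comparison called 32.7% of tested entries in the α1ACT line and 25.3% in the vector line, and miR-338-3p ranked 15 and 10 among the 269 fold changes, counted from the highest. Both calls held in all 36 alternative settings, where the fold change ranged over 0.80 to 1.02 and 0.60 to 1.11 on the log2 scale. The rise therefore stood also under the exchanged names.

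Over the whole span from 6 h to 10 d, which shares the 10 d libraries with that step, miR-338-3p rose 1.62-fold in the α1ACT line (log2 fold change 0.70, SE 0.134, edgeR adjusted p = 0.000271). The vector line also had a fold of 1.62 (0.70, SE 0.153, edgeR adjusted p = 0.00197). Called entries made up 27.1% in the α1ACT line and 11.9% in the vector line, and the fold change of miR-338-3p ranked 8 and 11 of 269. The vector value rests on the names of the disputed pair. It was -0.08 in the Chimira table (edgeR adjusted p = 0.995), -0.01 with the pair exchanged (0.993), 0.43 with both left out (0.253) and 0.51 without vector 6 h replicate 2 alone (0.168). In the Chimira table with the pair exchanged it was 0.68 (0.00230). The α1ACT value held in all 36 settings, at 0.60 to 0.75.

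The earlier steps were smaller. Between 6 h and 24 h the log2 fold change of miR-338-3p was 0.18 (SE 0.135) in the α1ACT line and 0.16 (SE 0.152) in the vector line, neither called (edgeR adjusted p = 0.431 and 0.726), where 10.4% and 1.12% of entries were. From 24 h to 3 d miR-338-3p fell by 0.39 on the log2 scale in the α1ACT line (SE 0.135, edgeR adjusted p = 0.0369), with 22.3% of entries called. That call was lost in 9 of 36 settings. These were the Chimira table, the exchanged pair, a filter at a mean of 10 CPM (-0.27) and the leaving out of α1ACT 6 h replicate 3, of α1ACT 24 h replicates 1 or 3, or of any 3 d library of that line. The vector value was -0.34 (SE 0.138, edgeR adjusted p = 0.0805), not called, with 23.8% of entries called. It was called without vector 24 h replicate 2 (0.0278), without vector 3 d replicate 3 (0.0178), with both disputed libraries left out (0.0487) and under upper-quartile scaling (0.0330).

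Depth also differed with time, at 1850263 to 2300181 counts at 6 h, 1557147 to 3028200 at 24 h, 448557 to 3849102 at 3 d and 2056181 to 5070120 at 10 d. The part of depth in the result was not tested. As these are bulk samples, a change in the number of cells that hold the miRNA and a change in the amount per cell cannot be told apart.

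Under the sRNAbench names no difference in the time course of miR-338-3p was detectable between the lines. The interaction of line and time had an edgeR adjusted p of 1.00 (unadjusted p = 0.995), with 0% of the 269 entries called by edgeR. Of these entries 10 had a p under 0.05 before adjustment, and DESeq2 called 2 and limma-voom 0. The change from 6 h to 10 d differed between the lines by -0.0048 on the log2 scale (α1ACT minus vector, 95% interval -0.42 to 0.41). For the step from 3 d to 10 d the difference was 0.03 (-0.37 to 0.42). Both values depend on the disputed names. For 6 h to 10 d the difference was 0.71 (0.12 to 1.29) with the pair exchanged, 0.80 (0.22 to 1.37) in the Chimira table and 0.21 (-0.27 to 0.69) with the pair left out. For 3 d to 10 d it was 0.26 (-0.30 to 0.82), 0.35 (-0.20 to 0.89) and 0.05 (-0.35 to 0.46) in the same order. These single intervals are not adjusted over entries, and the interaction was not called for miR-338-3p under these settings either (edgeR adjusted p = 0.881, 0.645 and 0.999).

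The difference between the lines, with which the miRNA was put forward, was small and of 1 sign at each time. Over all times miR-338-3p stood at 468 ± 128 CPM in the α1ACT line (SD, n = 12, lowest 326, median 429, highest 751) and at 401 ± 115 CPM in the vector line (n = 11, lowest 249, median 374, highest 578). The ranges overlap widely, and under the sRNAbench names the levels within each line change with time. The fitted log2 fold change as the mean of the 4 times was 0.23 (SE 0.0698), a fold of 1.18, ranking 44 of 269 from the highest. Of all tested entries 12.6% were called in that comparison, from which nothing is read for miR-338. At 6 h and 24 h the log2 fold change was 0.24 (SE 0.152) and 0.26 (SE 0.135), and at 3 d and 10 d it was 0.21 (SE 0.138) and 0.23 (SE 0.133). Single libraries weigh heavily in these values. At 6 h the value was 0.09 without vector replicate 2 and 0.36 without vector replicate 1, at 24 h 0.15 without vector replicate 2, and at 3 d 0.12 without vector replicate 1 and 0.37 without vector replicate 3. The lowest α1ACT library lay above the highest vector library at 10 d (601 against 578 CPM), and the groups overlapped at 6 h, 24 h and 3 d. How often other entries separate like this at a single time was not counted, so nothing is read from it. At these single times edgeR called 0% of entries (6 h), 0.372% (24 h), 0.372% (3 d) and 1.49% (10 d). At 6 h 30 entries had a p under 0.05 before adjustment, and DESeq2 called 2 and limma-voom 0. With the disputed names exchanged the value at 6 h turned to -0.23 and that at 10 d became 0.48. In the Chimira table these were -0.26 and 0.53, while the mean over the times kept its sign in all 35 settings tried for it (0.18 to 0.33). Mesenchymal markers also moved with the line, with a sum of 5 entries at 399 to 1322 CPM in the vector line and 303 to 786 CPM in the α1ACT line, most of it miR-143-3p. The defining miR-145-5p reached at most 2 counts in a library, and the part of such cells in the result was not tested.

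**Figure D3:**
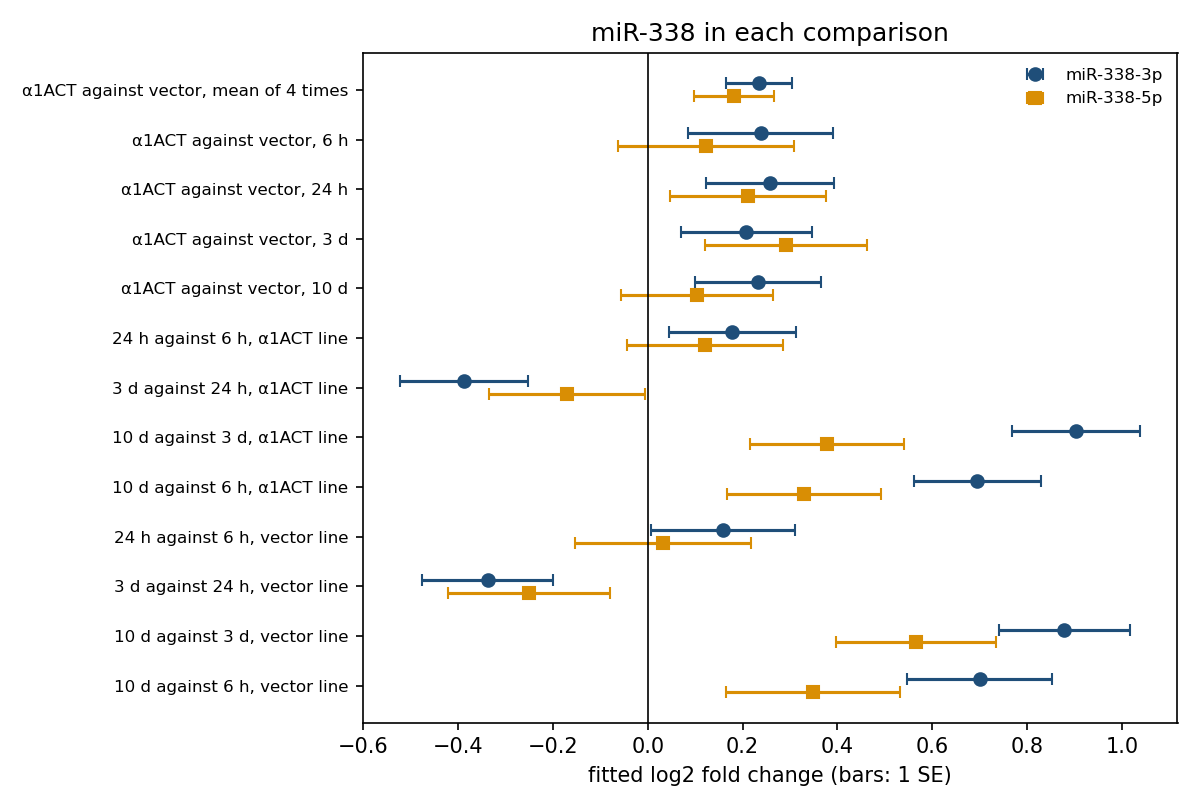
Fitted log2 fold change of miR-338-3p (circles) and miR-338-5p (squares) in each comparison of 2 conditions, with bars of 1 SE. The comparisons of the lines (5 uppermost) are descriptions. For the 3p arm the steps from 3 d to 10 d lie farthest to the right, at 0.90 and 0.88, and the steps from 24 h to 3 d lie left of 0.

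The group means of the 5p arm were likewise highest at 10 d and lowest at 3 d in each line, at a far lower level. In the α1ACT line miR-338-5p stood at 46.1 ± 3.74 CPM at 6 h, 50.1 ± 3.95 at 24 h, then 44.6 ± 4.32 at 3 d and 57.9 ± 10.5 at 10 d (SD, n = 3 each). The vector line stood at 42.4 ± 2.51 (n = 2), 43.4 ± 3.24, 36.0 ± 2.09 and 53.9 ± 7.72 CPM (n = 3 each). Its libraries of 6 h, 24 h and 3 d held 47.2, 42.0 and 49.3, then 51.6, 53.2 and 45.7, then 49.4, 43.3 and 41.0 CPM in the α1ACT line. Those of the vector line held 40.6 and 44.2, then 43.3, 40.3 and 46.7, then 33.6, 37.5 and 37.0 CPM. The lines overlapped at 6 h and 24 h but not at 3 d, where every α1ACT library was higher. How many of all entries separate in this way was not counted, and nothing is read from it. At 10 d the lines overlapped and the libraries spread widely, with 53.2, 70.0 and 50.6 CPM in the α1ACT line and 50.9, 48.2 and 62.7 CPM in the vector line. From 3 d to 10 d miR-338-5p rose in the vector line (log2 fold change 0.57, SE 0.168, edgeR adjusted p = 0.0147), a call lost in 5 of 36 settings, among them without vector 10 d replicate 3 (0.102). In the α1ACT line the value was 0.38 (SE 0.163, edgeR adjusted p = 0.0726), not called. It was called in the Chimira table (0.0366), there with the pair exchanged (0.0188) and under upper-quartile factors (0.0204), and it was 0.23 without α1ACT 10 d replicate 2 (0.313). From 6 h to 10 d it was 0.33 (SE 0.163) and 0.35 (SE 0.184) in the α1ACT and vector lines, neither called (edgeR adjusted p = 0.142 and 0.245). The first was 0.18 without α1ACT 10 d replicate 2, and the second was called under upper-quartile factors (0.52, edgeR adjusted p = 0.0403). The F test of time gave an edgeR adjusted p of 0.169 in the α1ACT line and 0.0485 in the vector line, and the latter call held in 4 of 36 settings. Between the lines the 5p arm had a fitted log2 fold change of 0.18 (SE 0.0852) as the mean of the times, again as a description.

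The 3p arm was the dominant product of the hairpin in every library. Its share of the counts of both arms was 90.0 ± 1.42% (SD, n = 23), from 87.7% (vector 6 h replicate 2, 95% exact binomial interval 85.2 to 89.9, of 794 counts) to 92.4% (α1ACT 10 d replicate 3, 90.9 to 93.8, of 1384 counts). By group the share in the α1ACT line was 89.8 ± 0.561% at 6 h, 90.1 ± 1.20% at 24 h, then 88.7 ± 1.18% at 3 d and 91.9 ± 0.468% at 10 d (n = 3 each). The vector line had 88.9 ± 1.80% (n = 2), 89.7 ± 1.18%, 89.1 ± 1.41% and 91.2 ± 1.04% (n = 3 each). The share was highest at 10 d in each line, and in the α1ACT line all 10 d libraries (91.5 to 92.4%) lay above all earlier ones (87.8 to 90.8%). The vector library of 10 d replicate 3 (90.2%) lay within the range of earlier times. The lowest and the highest share in the vector line, 87.7% and 92.3%, are those of the disputed pair, so an exchange would put the lowest at 10 d. Whether the arms differed in their change with time was not tested. The intervals cover counting error only, as reads carry no molecular identifiers.

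**Figure D4:**
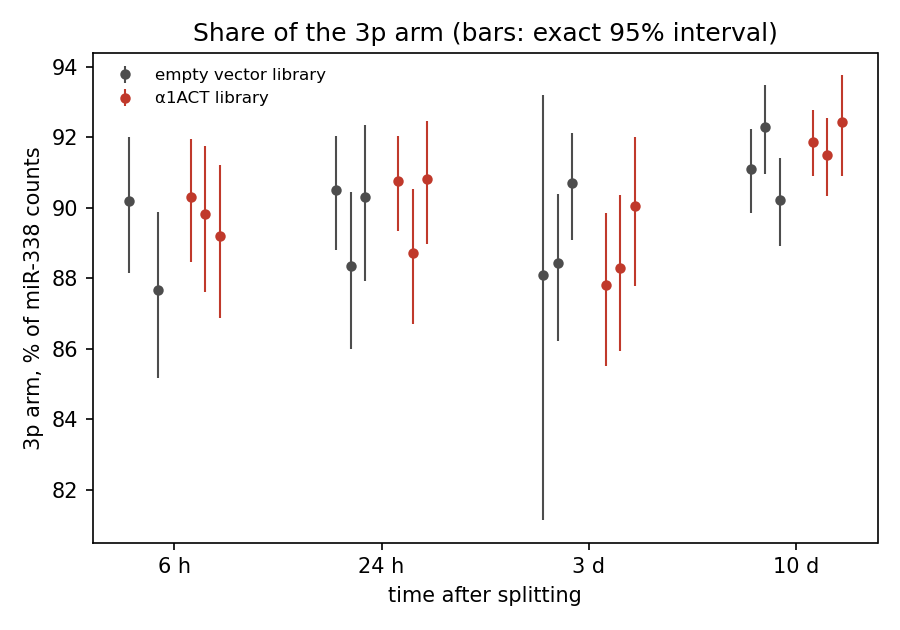
Share of the 3p arm among all miR-338 counts in percent, by time after splitting, with 1 point per library and its exact 95% binomial interval. Points lie between 87.7% and 92.4%, and the axis does not start at 0. The widest interval is that of the shallow vector library of 3 d, with 126 counts for both arms.

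On the opposite strand miR-3065 was nearly silent. The 5p arm had 123 counts in all 23 libraries and at most 14 in 1 library, a mean of 1.96 CPM, and the 3p arm had 2 counts in all and was not tested. From 6 h to 10 d the log2 fold change of miR-3065-5p was -0.98 (SE 0.889) in the α1ACT line and -1.0 (SE 0.848) in the vector line, neither called (edgeR adjusted p = 0.441 and 0.482). At this depth no change of miR-3065-5p was detectable.

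miRNAs known from the same cell types were counted from lists chosen with earlier results of these data known. The calls of list members given here and below are therefore descriptions and no independent support. Of the oligodendrocyte and Schwann cell list (miR-219a, miR-219b, miR-138 and miR-23a), 5 of 7 entries were tested. In the α1ACT line the F test of time called 2 of the 5 and in the vector line 3, against 42.0% and 36.8% of all entries. From 3 d to 10 d miR-138-5p, known from oligodendrocyte differentiation and dendritic spines, rose in both lines (log2 fold change 0.59 in the α1ACT line and 0.36 in the vector line, edgeR adjusted p = 0.000310 and 0.0181). So did miR-23a-3p (0.54 and 0.60, edgeR adjusted p = 0.00231 and 0.00118). Before that, from 24 h to 3 d, miR-138-5p fell by 0.44 and by 0.32 (edgeR adjusted p = 0.00515 and 0.0375). Of the arms of miR-219a, the partner of miR-338 in oligodendrocytes, only miR-219a-1-3p was called. In the last step miR-219a-1-3p fell by 0.95 on the log2 scale in the vector line (edgeR adjusted p = 0.0165), while the value in the α1ACT line was -0.28 (0.463), and over the span from 6 h to 10 d it fell by 1.0 in the vector line (0.0266). Over that span miR-138-5p rose in the α1ACT line (0.35, 0.0213) and miR-23a-3p in the vector line (0.56, 0.00956). These vector values share the disputed names. Neither miR-219a-5p (0.24, SE 0.315, and 0.12, SE 0.316) nor miR-138-1-3p (-0.16 and -0.68) was called in any comparison (values from 3 d to 10 d). Between the lines 1 of the 5 was called, miR-138-5p (0.23, edgeR adjusted p = 0.0120), against 12.6% of all entries. The median of the 5 was 0.12 against 0.00089 over all entries.

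Sequences of these companions show that their seeds (capitals) are not that of miR-338-3p. They are again RefSeq's for GRCr8.
miR-219a-5p: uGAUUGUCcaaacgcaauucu
miR-138-5p: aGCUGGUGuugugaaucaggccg
miR-23a-3p: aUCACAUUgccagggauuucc
miR-153-3p: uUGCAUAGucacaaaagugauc

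Of the neuron list (9 hairpins, 14 of 19 entries tested) the F test of time called 5 in the α1ACT line and 6 in the vector line, near the 42.0% and 36.8% of all entries. In the last step, 3 d to 10 d, miR-153-3p, a miRNA of neurons and neuroendocrine cells, rose in both lines (log2 fold change 1.0 and 0.78, edgeR adjusted p = 1.58e-06 and 5.58e-05). In the α1ACT line miR-128-1-5p fell by 0.94 on the log2 scale (edgeR adjusted p = 0.00434). For the vector line, miR-137-3p rose (0.61, 0.00800) while miR-218a-5p fell by 0.60 (0.00994). From 6 h to 10 d miR-153-3p rose (0.45 and 0.54 in the α1ACT and vector lines). Over the same span miR-212-5p, of the activity-regulated miR-132 and miR-212 cluster, fell by 1.1 and by 1.0 (edgeR adjusted p = 0.000176 and 0.00216). The vector values of this span rest on the disputed names. Over the alternative settings the count of entries called in it in the vector line ranged over 0 to 60, against 32. In the step from 24 h to 3 d miR-153-3p had fallen by 0.71 and by 0.40 and miR-132-3p had risen (0.60 and 0.77), each called in both lines. That step also called miR-137-3p (-0.46) and miR-212-5p (-1.2) in the vector line, and the step from 6 h to 24 h called miR-212-5p (-0.86) in the α1ACT line. Between the lines 2 of the 14 were called, miR-9a-5p (0.70, at 10 d alone 0.90) and miR-129-5p (0.49), against 12.6% of all entries. As the list was chosen with earlier results of these data known, these calls are a description. The median of the list from 3 d to 10 d was 0.04 in the α1ACT line and 0.19 in the vector line, against 0.0069 and 0.01 over all entries.

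Of the astrocyte and microglia list 4 of 5 entries were tested, and the F test called 2 in the α1ACT line and 1 in the vector line, where 42.0% and 36.8% of all entries were called. In the last step miR-21-3p (log2 fold change 0.93) and miR-29a-3p (0.46) rose in the α1ACT line (edgeR adjusted p = 0.0106 and 0.00715), and 0 of the 4 were called in the vector line (smallest edgeR adjusted p = 0.0589, miR-29a-3p, log2 fold change 0.32). From 24 h to 3 d miR-21-3p had fallen by 1.0 and by 1.2 in the α1ACT and vector lines and miR-29a-3p by 0.44 in the α1ACT line. Between the lines 0 of the 4 were called (smallest edgeR adjusted p = 0.4999, miR-21-3p, 0.15), against 12.6% of all entries. Of the list of miRNAs reported beside miR-338 in sympathetic axons 6 of 8 entries were tested. The F test called 2 of them in the α1ACT line and 1 in the vector line, beside 42.0% and 36.8% of all entries. With 6 entries nothing is read from these counts. In the last step miR-16-5p fell by 0.30 and by 0.32 (edgeR adjusted p = 0.0458 and 0.0390), and in the α1ACT line miR-15b-3p fell by 0.74 (0.0306). In the step before, miR-16-5p had risen (0.33 and 0.42, edgeR adjusted p = 0.0422 and 0.00848). Between the lines 1 of the 6 was called, miR-15b-3p, lower in the α1ACT line (-0.42, edgeR adjusted p = 0.0415), against 12.6% of all entries. No member of the lists was called in the interaction.

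The entries whose levels ran most like miR-338-3p over the 23 libraries, by Pearson's r of log2 CPM among 221 other entries of at least 10 CPM, were miR-23a-3p (r = 0.88), miR-153-3p (0.87), miR-181c-5p (0.87), the 5p arm of miR-338 itself (0.85) and the abundant miR-22-3p (0.85). The most opposite were miR-92a-3p of the growth-promoting miR-17-92 cluster (-0.89) and miR-423-3p (-0.85). These values are a description. All entries of a library share its depth and scaling, and libraries of 1 time share that time, so the common course over time weighs heavily in each r. Once the group means were removed, r was 0.66 for miR-23a-3p, 0.58 for miR-153-3p, 0.42 for miR-181c-5p, 0.45 for the 5p arm and 0.42 for miR-22-3p, against -0.29 for miR-92a-3p and -0.07 for miR-423-3p. Without the disputed pair of vector libraries the r over the other 21 was 0.89 for miR-23a-3p and -0.89 for miR-92a-3p. Within the lines it was 0.92 (vector) and 0.83 (α1ACT) for miR-23a-3p, and 0.93 and 0.87 for miR-153-3p.

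In levels, miR-153-3p stood at 121 ± 7.54 CPM at 3 d and 243 ± 16.2 CPM at 10 d in the α1ACT line, and at 137 ± 5.60 and 234 ± 5.94 CPM in the vector line (SD, n = 3 each). The levels of miR-92a-3p ran the other way, from 2371 ± 150 to 1074 ± 61.5 CPM in the α1ACT line and from 2676 ± 407 to 1236 ± 238 CPM in the vector line.

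**Figure D5:**
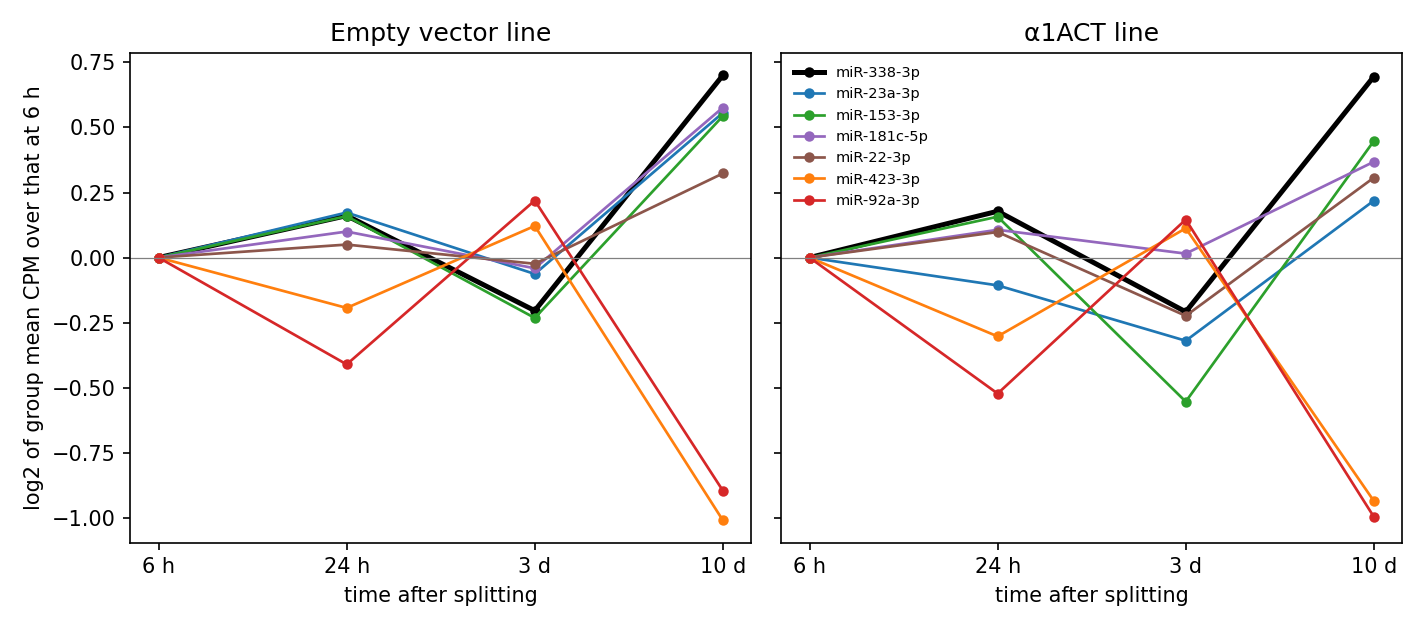
Log2 of the group mean in CPM over that at 6 h in the same line, by time after splitting, for miR-338-3p (thick black) and the 6 other miRNAs named as most alike or most opposite (without the 5p arm), in the vector line (left) and the α1ACT line (right). The alike entries end above 0 at 10 d in both panels, miR-338-3p highest, and miR-423-3p and miR-92a-3p end lowest. In the vector panel the groups of 6 h and 10 d each hold a disputed library. With these names exchanged the fitted log2 fold change of miR-338-3p from 6 h to 10 d was -0.01 in that line.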

How the data were processed

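Small RNA counts of 23 libraries in 8 groups were read from 2 tables of whole-number read counts per mature miRNA, deposited by the authors without normalization. Their names point to sRNAbench with single assignment (413 entries, the main table) and Chimira (627 entries, the alternative). The submitters' processing notes name edgeR. The authors' aligner, build and miRBase release: not given in the sources used here. The α1ACT libraries were taken from the columns named WT, assuming that the name refers to a normal-length repeat, and the vector libraries from those named control. A further 12 columns per table belong to no sample here and were not used. An unnamed entry with 0 counts (0% of the total) was left out.

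Counts were fitted in R 4.3.3 with edgeR 4.0.16 over all 269 entries kept by filterByExpr: TMM scaling, 1 mean per group, robust quasi-likelihood dispersions, and Benjamini-Hochberg adjustment over all entries (called: adjusted p under 0.05). Intervals of shares are exact binomial at 95%. No duplicate libraries were found (chi-square per degree of freedom of replicate pairs 22.8 to 229). Log2 CPM for the correlations used a pseudocount of 0.5. The steps were tested on simulated data. Alternatives used DESeq2 1.42.0, limma-voom (limma 3.58.1) and other settings.

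The members and lists were chosen with earlier results of these data known. Lists were matched on hairpin names, and the named entries were the members, list members tested or called, the 5 entries most like miR-338-3p, the 2 most opposite and its neighbours in abundance. The Chimira table with the pair of names exchanged was added after seeing the data. So were the intervals of the differences between the lines in their time changes, also under the other namings of the pair.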

Additional observations from a re-analysis of the deposited data

How the results depend on the processing

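Results for miR-338-3p in the α1ACT line kept their direction in all 36 alternative settings. The call from 24 h to 3 d there was lost in the Chimira table (-0.40), with the disputed pair exchanged (-0.39) and with entries of at least 10 CPM alone (-0.27), and ranged over -0.47 to -0.31 with each library left out. In the vector line results changed with the names of the pair, with single libraries left out and with upper-quartile factors. With the Chimira table the log2 fold change turned to -0.36 from 6 h to 24 h and to -0.0769 from 6 h to 10 d, and the F test of time missed the threshold (adjusted p = 0.0549). With the pair exchanged in the main table these were -0.31, -0.0103 and 0.0593. With the pair left out they were -0.0283 and 0.43, and 24 h to 3 d was called (-0.37), as under upper-quartile factors (-0.44). The difference between the lines at 6 h was -0.26 (Chimira), -0.23 (exchanged) and 0.43 (upper quartile), and at 10 d 0.53 and 0.48 (Chimira, exchanged). With each library left out, the vector values ranged over -0.0154 to 0.29 (6 h to 24 h), -0.50 to -0.24 (24 h to 3 d) and 0.51 to 0.79 (6 h to 10 d). The cause was not tested beyond the construction of each setting.

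For miR-338-5p, the vector value from 6 h to 24 h turned to -0.0794 (Chimira), -0.0377 (library totals), -0.0285 (at least 10 CPM) and -0.0357 (exchanged), and ranged over -0.0610 to 0.0775 with libraries left out. The difference between the lines at 10 d ranged over -0.0098 to 0.24, the lowest without α1ACT 10 d replicate 2. The 3p share was 89.4% in the Chimira table.

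Over all pairs of groups, deviations of same-numbered libraries correlated at a mean of 0.01 (-0.70 to 0.73, 77 pairs). For libraries of other numbers the mean was -0.0068 (154 pairs). These means mix all times and lines, so they cannot exclude a pairing of the lines within a time. With a replicate block no call of either arm changed; the rise from 6 h to 10 d was 0.70 and 0.67 (α1ACT and vector lines).

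Upper-quartile factors moved the median of all entries by up to 0.24 (vector, 3 d to 10 d) and library totals by up to 0.11 (lines, 10 d) and -0.11 (vector, 6 h to 10 d). Counts of called entries ranged more than 1.5 times from the values reported in several comparisons: 16 to 48 against 34 (lines, mean of times), 0 to 7 against 0 at 6 h, 0 to 3 against 1 at 24 h, 0 to 6 against 1 at 3 d, 0 to 11 against 4 at 10 d, 0 to 4 against 0 (interaction), 16 to 43 against 28 (α1ACT, 6 h to 24 h), 34 to 72 against 60 (α1ACT, 24 h to 3 d), 0 to 5 against 3 (vector, 6 h to 24 h), 44 to 101 against 68 (vector, 3 d to 10 d), 0 to 60 against 32 (vector, 6 h to 10 d) and 46 to 120 against 99 (vector, F test). Depth limits the 5p arm, with 15 counts in the shallowest library.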
